A study of Mus musculus with 17 samples.

Results

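Genes used to recognise astrocytes, 10 in number, were described in all 17 libraries of the series: Aldh1l1, Gfap, S100b, Aqp4, Gja1, Gjb6, Aldoc, Sox9, Fgfr3 and Acsbg1. The genes were chosen by name, and all 10 were found among the 21640 gene symbols of the count table. All 10 also passed the filter on low counts, which left 14927 genes for testing. Bulk RNA-seq had been made from sorted brain cells and from cerebral cortex of mice, and the comparison here asked how much RNA of these genes each kind of library carried and whether single libraries labelled astrocyte differed among themselves.

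Astrocytes are the star-shaped glia of the brain. They clear glutamate and potassium from around neurons, pass metabolites to them, and wrap blood vessels in endfeet that are rich in water channels. Gap junctions built of connexins join them into networks. The cytoplasmic enzymes, intermediate filaments, channels and transcription factors of this program are each used as a marker, although several are also made by other cells of the brain.

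The 3 libraries labelled astrocyte came from tdTomato-positive cells sorted from the cortex of hGFAPCreER:Ai14 mice, in which a human GFAP promoter drives the inducible Cre and the Ai14 reporter gives tdTomato. Arteriolar smooth muscle cells (aSMCs) came in 6 samples from SMACreER:Ai47 mice, by sorting for EGFP, from adults given tamoxifen about 1 month earlier, with cells carrying the endothelial protein CD31 or the leukocyte protein CD45 removed. They came in 2 further samples from SMACreER:Ai14 mice, by sorting for tdTomato. The 6 cortex samples are labelled wild type and homogenate, and the study's text describes a fraction of the same dissociated cortices. A promoter of smooth muscle actin drives the Cre in both aSMC groups. The age and the time of tamoxifen are not given for the astrocytes or for the aSMCs of SMACreER:Ai14 mice in the sources used here. Because the astrocytes were sorted through a GFAP promoter, their Gfap level is not independent of how they were chosen. The study counts mice as its unit for cortex and for the sorted aSMCs it describes. Nothing in the labels ties single libraries to separate animals, so for groups where this does not hold the spread behind a p-value may be technical.

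Library totals were 4537137 to 7390630 counts in the astrocyte libraries, 41499087 to 53643624 and 14870507 to 14979228 in the aSMCs of SMACreER:Ai47 and SMACreER:Ai14 mice, and 5397905 to 7288036 in cortex. Between 10.7% and 12.5% of counts in the astrocyte libraries were mitochondrial. In the aSMCs the share was 0.214% to 0.559% for SMACreER:Ai47 mice and 16.8% to 17.6% for SMACreER:Ai14 mice. In cortex the share was 35.7% to 59.0% in replicates 1 to 3 and 67.7% to 72.9% in replicates 4 to 6, and the effect of leaving out either set is given below where a result rests on it. Astrocyte replicate 2 had counts for 9083 genes, against 11405 and 12827 in replicates 1 and 3. Of 7585 genes that reached 10 CPM (counts relative to library totals scaled by the TMM factors of edgeR) in an astrocyte library, 1777 (23.4%) had no count at all in another astrocyte library. The same share was 0.712% among cortex replicates 1 to 3 and 4.78% among cortex replicates 4 to 6. In the aSMCs of SMACreER:Ai47 mice, 83 of 11008 genes with a mean of at least 20 counts differed by no more than 5% of that mean over all 6 columns, against 0 of 9216 in cortex, and there Gja1 had 24380 to 25670 raw counts, Gjb6 5 or 6, and Aldh1l1 52 to 55 in replicates 2 to 6. The cause of these close counts was not tested, and p-values that take the 6 columns as independent may be too small. In bulk samples fewer cells of a type and less RNA per cell cannot be told apart.

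The libraries labelled astrocyte carried 6 of the 10 genes in every replicate, namely Aqp4, Gja1, Aldoc, Sox9, Gfap and S100b. The other 4 were absent from at least 1 of them, and Gjb6 was absent from all 3. Markers of ependymal cells, the ciliated cells that line the ventricles, were high in the same libraries. All 10 ependymal markers were higher than in cortex by edgeR's quasi-likelihood test (14.6% of all genes were), with a median log2 fold change of 8.80 against -0.08 over all genes. Their summed level was 1817, 2739 and 1479 CPM in astrocyte replicates 1, 2 and 3, against 0.945 to 11.0 CPM in cortex, and none of the 10 was at 0 in all astrocyte libraries. Foxj1, which switches on genes of motile cilia, was at 257.7, 524.5 and 237.3 CPM in astrocyte replicates 1 to 3, against 0 to 1.43 CPM in cortex. The labels name no ependymal cells, and the part of these markers in the results below was not tested. The ependymal list, like the other lists here, was chosen with earlier results of these data known. Neuron markers summed to 86.3 to 125 CPM in the astrocyte libraries and 2937 to 4728 CPM in cortex, and 13 of 14 were lower (19.8% of all genes were). Microglia and macrophage markers summed to 1.97 to 4.40 CPM in the astrocyte libraries and 193 to 1965 CPM in cortex, and 11 of 12 were lower. The name astrocyte libraries is kept below as the label only.

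**Figure D1:**
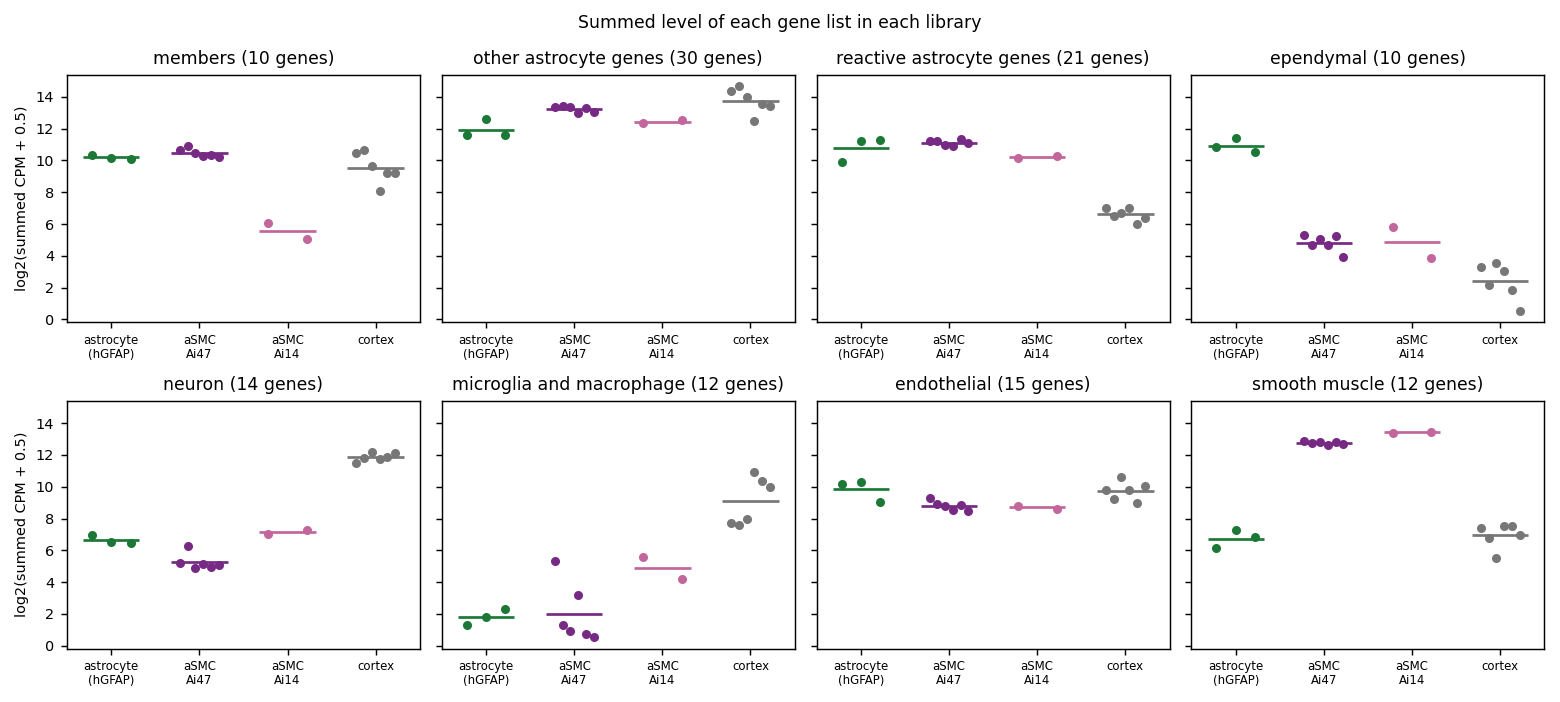
Summed level of 8 gene lists in each library, as log2(summed CPM + 0.5), in astrocyte libraries, aSMCs of SMACreER:Ai47 mice, aSMCs of SMACreER:Ai14 mice and cortex. Each point is 1 library and each line the group mean of the log2 values. The 10 astrocyte identity genes (panel titled members) have overlapping sums in astrocyte libraries and cortex, whereas ependymal markers are at 1479 to 2739 CPM in astrocyte libraries and at most 11.0 CPM in cortex.

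Per kilobase of exon, the 10 genes stood in a different order in the astrocyte libraries than in cortex. In the astrocyte libraries Aqp4 was first at 81.8 ± 8.38 CPM per kb, followed by Aldoc at 51.1 ± 15.7 and Sox9 at 30.3 ± 2.28 CPM per kb (SD, n = 3 each). Acsbg1, at 0.0281 ± 0.0373 CPM per kb, and Gjb6, with no counts, were last. In cortex Aldoc was first at 143 ± 94.8 CPM per kb, followed by S100b at 65.3 ± 33.5 and Acsbg1 at 13.9 ± 9.70 CPM per kb (SD, n = 6 each). Ranges over libraries overlapped for 6 of the 9 neighbouring pairs in the astrocyte libraries and for 8 of 9 in cortex, so among neighbours only the steps below Aqp4, Aldoc and S100b in the astrocyte libraries and below S100b in cortex were larger than the spread. In the aSMCs of SMACreER:Ai47 mice Gja1 and Sox9 stood apart from the other 8. In those of SMACreER:Ai14 mice Aldoc was first at 3.45 ± 0.760 CPM per kb (SD, n = 2), and 7 of 9 neighbouring pairs overlapped.

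Compared with cortex, 4 of the 10 genes in astrocyte libraries differed at a Benjamini-Hochberg adjusted p under 0.05 in the quasi-likelihood test of edgeR (5145 of 14927 genes tested, 34.5%, did so). Gja1 and Sox9 were higher (14.6% of all genes were), and Gjb6 and Acsbg1 were lower (19.8% of all genes were). The median log2 fold change of the 10 genes was -0.01 (also with Gjb6 set to its bound), against -0.08 over all genes. Values did not overlap between the groups for 5 of the 10, with Aqp4 and Sox9 above and S100b, Gjb6 and Acsbg1 below, and 25.1% of all genes tested were so separated. Log2 fold changes are followed by ± their standard error where it is given.

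**Figure D2:**
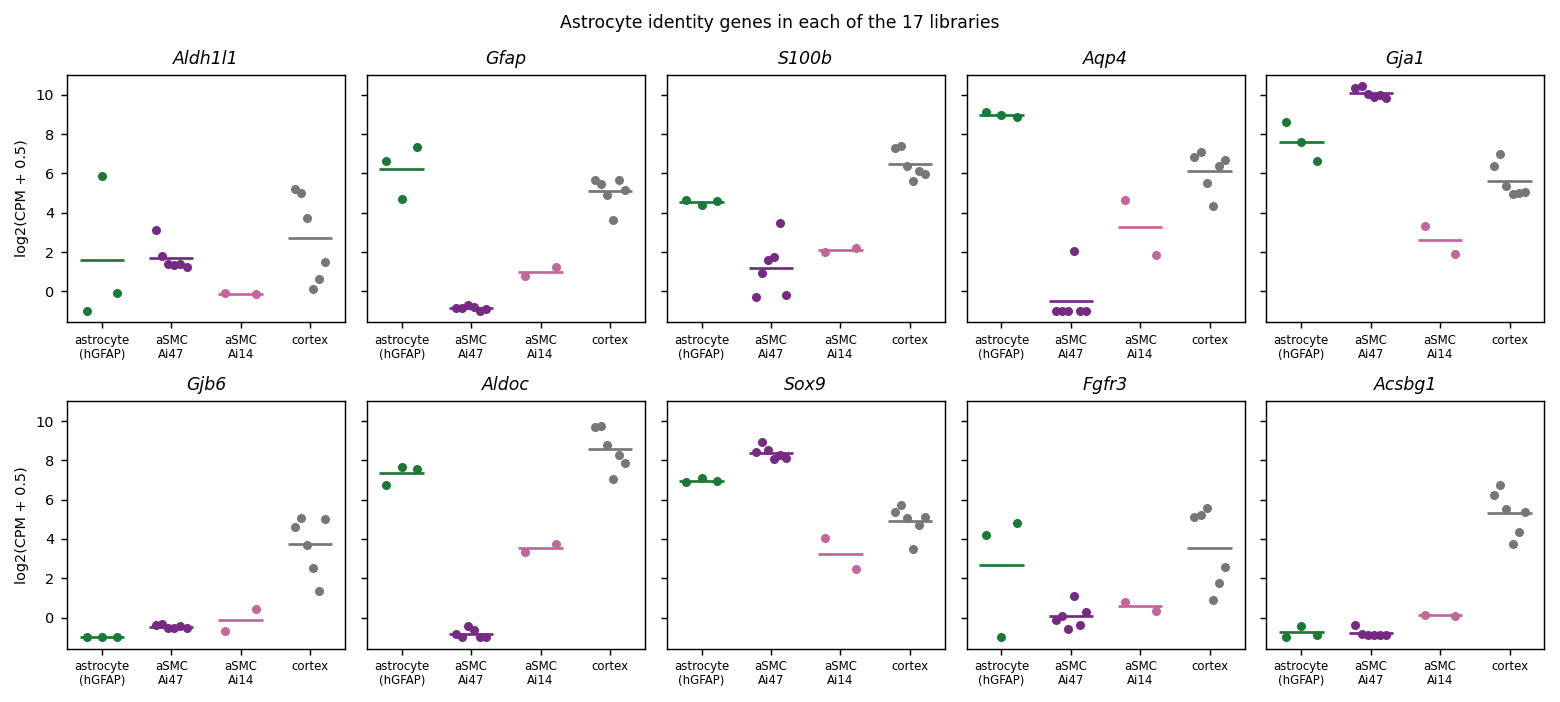
Level of each of the 10 genes in each of 17 libraries, as log2(CPM + 0.5), in astrocyte libraries, aSMCs of SMACreER:Ai47 mice, aSMCs of SMACreER:Ai14 mice and cortex. Points are libraries in replicate order and lines are means of the log2 values. Gjb6 is at the floor of the axis in all 3 astrocyte libraries, and Gja1 is highest in the aSMCs of SMACreER:Ai47 mice, at 903 to 1403 CPM.

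Promoter sequence is shown for 3 genes whose level differed between astrocyte libraries and cortex, so that their start regions can be read beside the values. The windows are the 250 bases before the RefSeq start, on GRCm38.p6, written 5′ to 3′ on the strand of the gene, and 8 of the 10 genes had an entry. Capitals mark matches on either strand to TTGGC (a core of nuclear factor I sites), ACAAAG or ACAATG (cores of SOX sites), TTCNNNGAA (a core of STAT sites) and TATAAA. Acsbg1 is read from chr9:54661886-54662135 on the minus strand, Gjb6 from chr14:57133612-57133861 on the minus strand and Gja1 from chr10:56377050-56377299 on the plus strand.
Acsbg1: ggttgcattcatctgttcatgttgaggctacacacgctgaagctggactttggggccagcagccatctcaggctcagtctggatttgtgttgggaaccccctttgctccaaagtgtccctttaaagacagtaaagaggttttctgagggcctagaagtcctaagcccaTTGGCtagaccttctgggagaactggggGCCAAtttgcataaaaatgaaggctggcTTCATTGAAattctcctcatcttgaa
Gjb6: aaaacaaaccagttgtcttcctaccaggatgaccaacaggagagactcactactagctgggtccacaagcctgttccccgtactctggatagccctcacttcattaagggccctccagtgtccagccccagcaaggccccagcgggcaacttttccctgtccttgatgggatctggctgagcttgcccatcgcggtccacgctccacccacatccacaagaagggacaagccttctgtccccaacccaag
Gja1: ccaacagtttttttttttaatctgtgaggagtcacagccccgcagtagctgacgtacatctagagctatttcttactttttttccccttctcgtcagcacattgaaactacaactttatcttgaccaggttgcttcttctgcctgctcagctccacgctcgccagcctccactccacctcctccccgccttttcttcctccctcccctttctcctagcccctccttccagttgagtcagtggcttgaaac
Acsbg1 held TTGGC and TTCNNNGAA, and neither Gjb6 nor Gja1 held any of these letters in its window. Over the 10 windows of the 8 genes, TTGGC was in 3, against 41.5% of all 32851 windows of this length, and TTCNNNGAA in 2, against 7.02%. None of the 10 windows held ACAAAG (found in 16.5% of all windows), none held TATAAA (found in 12.4%) and the other SOX core was likewise not among them (found in 10.7%). A match or its absence describes the letters only.

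Gja1 and Gjb6 encode connexin 43 and connexin 30, the channel proteins of astrocyte gap junctions, and they went in opposite directions. Gja1 (ENSMUSG00000050953.10, chromosome 10, 56377330 to 56402513, plus strand of GRCm38) was at 386, 192 and 96.9 CPM in astrocyte replicates 1, 2 and 3, against 83.8, 128, 40.7, 30.3, 32.03 and 33.1 CPM in cortex replicates 1 to 6. Astrocyte replicate 1 was the highest, and replicate 3 lay below cortex replicate 2, so the groups overlapped. The log2 fold change was 1.95 ± 0.519 (edgeR, adjusted p = 0.00713). The call was lost without astrocyte replicate 1 (1.32, adjusted p = 0.0542, edgeR) and without cortex replicates 4 to 6 (1.34, adjusted p = 0.10, edgeR).

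Gjb6 (ENSMUSG00000040055.9, chromosome 14, 57123303 to 57133611, minus strand) had 0 counts in each of the 3 astrocyte libraries, against 23.8, 32.9, 12.6, 5.34, 2.07 and 32.3 CPM in cortex replicates 1 to 6. Every cortex library was above every astrocyte library. Taking 3 counts over the astrocyte group as the limit that a count of 0 allows (0.0782 CPM), Gjb6 was at least 232-fold lower, and the edgeR test gave an adjusted p of 0.000170. More connexin genes were lower than higher. Of 14 connexin genes 7 were tested, of which Gja1 alone was higher (14.6% of all genes were) and 4 were lower (19.8% of all genes were). The median log2 fold change was -5.46 (-4.32 with genes at 0 set to their bound) against -0.08 over all genes. Gjc3, a connexin of oligodendrocytes, was at 0.936, 2.79 and 1.87 CPM in the astrocyte libraries, against 45.4 to 176 CPM in cortex, a log2 fold change of -5.46 ± 0.85 (edgeR, adjusted p = 0.000107). Gjb2, which encodes connexin 26, had no counts in the astrocyte libraries and was at least 19.98-fold lower than its mean of 1.56 CPM in cortex. Gja4, a connexin of vessels, had 1 count in the 3 astrocyte libraries and 96 in cortex, a ratio of 84.5 for cortex over astrocyte libraries (95% exact Clopper-Pearson interval 14.8 to 3373, counting error only). Gjc1 and Gja5 did not pass, with log2 fold changes of -2.32 (adjusted p = 0.0751) and -2.01 (adjusted p = 0.402) by the same edgeR test.

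Sox9 and Fgfr3 belong to the program that makes glia: Sox9 is a transcription factor needed for gliogenesis, and Fgfr3 is a receptor for fibroblast growth factors that astrocytes and their precursors carry. Sox9 (ENSMUSG00000000567.5, chromosome 11, 112782224 to 112787760, plus strand) was at 118, 136 and 122 CPM in astrocyte replicates 1 to 3, against 40.4, 51.8, 32.6, 10.7, 25.8 and 33.8 CPM in cortex replicates 1 to 6. The astrocyte libraries were close to each other, and all 3 astrocyte libraries lay above all 6 cortex libraries. Its log2 fold change was 1.94 ± 0.469 (edgeR, adjusted p = 0.0038).

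Fgfr3 (ENSMUSG00000054252.18, chromosome 5, 33721674 to 33737068, plus strand) was at 17.98, 0 and 27.2 CPM in astrocyte replicates 1, 2 and 3, against 34.4, 36.3, 47.9, 1.38, 2.84 and 5.48 CPM in cortex replicates 1 to 6. Astrocyte replicate 2 had no count, and the cortex libraries fell into a high set, replicates 1 to 3, and a low set, replicates 4 to 6. Its log2 fold change was -0.51 ± 1.24 (edgeR, adjusted p = 0.783), and it was 2.23 without cortex replicates 1 to 3 (adjusted p = 0.296, edgeR). The difference between the groups was thus smaller than the spread within each.

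Aqp4, the water channel of astrocyte endfeet, had the highest level per kilobase of the 10 genes in the astrocyte libraries. Aqp4 (ENSMUSG00000024411.10, chromosome 18) was at 564, 506 and 459.7 CPM in astrocyte replicates 1 to 3, against 115, 136, 45.3, 19.6, 81.4 and 103 CPM in cortex replicates 1 to 6. All 3 astrocyte libraries were above all 6 cortex libraries, at a mean of 509.7 ± 52.2 CPM (SD, n = 3) in astrocyte libraries and 83.4 ± 44.1 CPM (SD, n = 6) in cortex. The log2 fold change was 2.61 ± 1.24 and did not pass in the fit of all 17 libraries (adjusted p = 0.107, edgeR). That fit shares 1 spread per gene over all groups, and Aqp4 had 97 counts in replicate 4 of the aSMCs of SMACreER:Ai47 mice and 0 in the other 5. Without that library the log2 fold change was 2.43 with an adjusted p of 0.00901 (edgeR), and with astrocyte libraries and cortex fitted alone it was 2.62 with an adjusted p of 0.00315 (edgeR). By DESeq2 on all 17 libraries the log2 fold change of Aqp4 was 2.70 and did not pass (adjusted p = 0.126). The cause of the missed call was not tested.

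Of 11 endfoot and dystrophin complex genes, Aqp4 included, 2 were higher, 2 were lower and 7 did not pass, a share of calls close to the 34.5% of all genes. The median log2 fold change was 0.22, against -0.08 over all genes. Mlc1, a membrane protein of perivascular endfeet, was at 567 ± 475 CPM in astrocyte libraries (SD, n = 3) and 59.9 ± 36.4 CPM in cortex (SD, n = 6), a log2 fold change of 3.24 (adjusted p = 0.0122, edgeR). Dmd, which encodes dystrophin, had a log2 fold change of 1.43 (adjusted p = 0.0235, edgeR). Utrn, the dystrophin relative utrophin, and Agrn, the matrix proteoglycan agrin, were lower, with log2 fold changes of -4.30 and -4.46. Kcnj10, the potassium channel Kir4.1, was at 362 ± 291 CPM in astrocyte libraries (SD, n = 3) and 309.7 ± 140.0 CPM in cortex (SD, n = 6), and its log2 fold change of 0.22 missed the threshold (edgeR, adjusted p = 0.833).

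Gfap and S100b encode the intermediate filament and the calcium-binding protein by which astrocytes are most often stained. Gfap (ENSMUSG00000020932.14, chromosome 11, 102887336 to 102900912, minus strand) was at 97.0, 25.2 and 159.8 CPM in astrocyte replicates 1, 2 and 3, against 50.3, 43.9, 29.6, 12.1, 50.4 and 35.3 CPM in cortex replicates 1 to 6. Astrocyte replicates 1 and 3 lay above all cortex libraries and replicate 2 lay among them. The log2 fold change of 1.35 ± 0.658 did not pass (adjusted p = 0.117, edgeR).

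S100b (ENSMUSG00000033208.7, chromosome 10, 76253853 to 76261159, plus strand) was at 24.5, 20.2 and 23.7 CPM in astrocyte replicates 1 to 3, against 154, 165, 83.6, 48.1, 69.0 and 62.0 CPM in cortex replicates 1 to 6. All 3 astrocyte libraries were below all 6 cortex libraries, and they were close to each other. The log2 fold change of -2.09 ± 0.906 did not pass in the fit of all 17 libraries (adjusted p = 0.0792, edgeR), and it passed with astrocyte libraries and cortex fitted alone (-2.07, adjusted p = 0.0230, edgeR). The call was also gained in the fit of all groups without replicate 1, 5 or 6 of the aSMCs of SMACreER:Ai47 mice, at adjusted p-values of 0.0372, 0.0256 and 0.0389 by edgeR. The gene model of S100b overlaps that of Dip2a on the other strand, and without knowledge of the strand setting reads from the overlap cannot be told apart.

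Aldh1l1, Aldoc and Acsbg1 encode enzymes that are richer in astrocytes than in other brain cells: a folate dehydrogenase, a glycolytic aldolase and an acyl-CoA synthetase of fatty acids. Acsbg1 (ENSMUSG00000032281.11, chromosome 9, 54604877 to 54661870, minus strand) had 0, 2 and 1 counts in astrocyte replicates 1 to 3 (0, 0.254 and 0.0505 CPM), against 76.1, 105, 45.3, 12.9, 20.1 and 41.4 CPM in cortex replicates 1 to 6. No astrocyte library came near the lowest cortex library. The ratio of cortex over astrocyte libraries was 797 (95% exact Clopper-Pearson interval 272 to 3867, counting error only), and the fitted log2 fold change was -9.03 ± 1.36 (edgeR, adjusted p = 7.95e-05).

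Aldh1l1 (ENSMUSG00000030088.15, chromosome 6, 90486427 to 90600203, plus strand) was at 0, 58.4 and 0.455 CPM in astrocyte replicates 1, 2 and 3, against 35.9, 31.2, 12.98, 0.593, 1.03 and 2.27 CPM in cortex replicates 1 to 6. Astrocyte replicate 2 held nearly all of the counts in its group, 460 against 0 and 9 in replicates 1 and 3, and it was the highest of all 17 libraries. Cortex replicates 1 to 3 were again above replicates 4 to 6. On the log2 scale the difference was 0.48 ± 1.38 (edgeR, adjusted p = 0.82), and without astrocyte replicate 2 it was -5.82 (adjusted p = 0.0259, edgeR), so 1 library set its direction.

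Aldoc (ENSMUSG00000017390.15, chromosome 11, 78322968 to 78327781, plus strand) was at 108, 202 and 189.8 CPM in astrocyte replicates 1, 2 and 3, against 831, 858, 441, 131, 312 and 233 CPM in cortex replicates 1 to 6. Only cortex replicate 4 lay within the range of the astrocyte libraries. Its log2 fold change of -1.49 ± 0.776 did not pass (adjusted p = 0.142, edgeR).

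**Figure D3:**
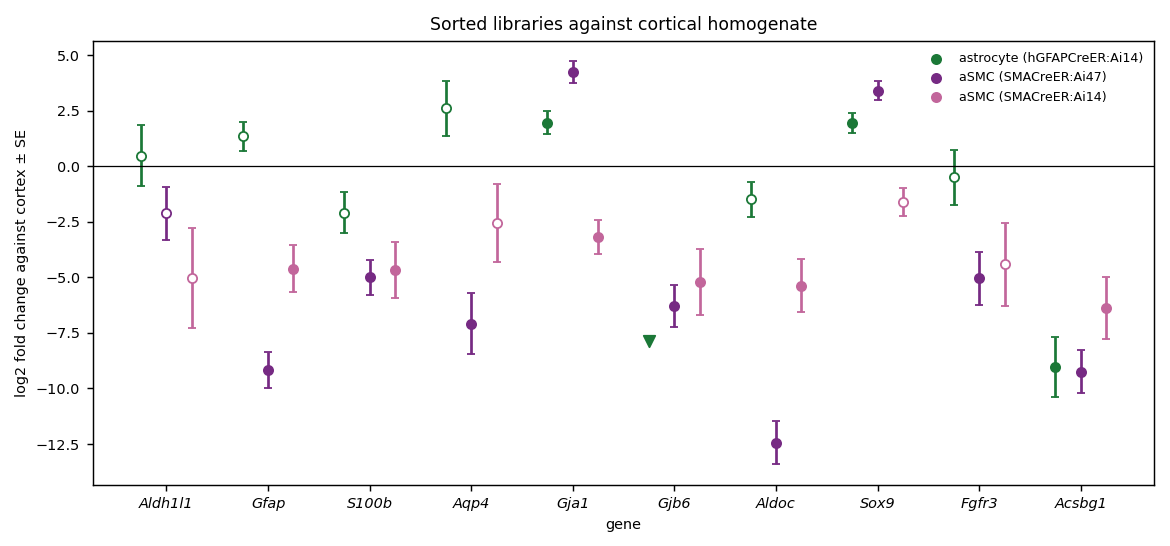
Log2 fold change against cortex of each gene in astrocyte libraries, aSMCs of SMACreER:Ai47 mice and aSMCs of SMACreER:Ai14 mice, from 1 edgeR fit of 17 libraries, with standard errors. Filled symbols passed an adjusted p under 0.05 and open ones did not, and the triangle for Gjb6 is the bound from 3 counts over the 3 astrocyte libraries. Gja1 and Sox9 are above cortex in astrocyte libraries (1.95 and 1.94) and in aSMCs of SMACreER:Ai47 mice (4.23 and 3.39). The 3 comparisons share the cortex samples.

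In a longer list of 30 other astrocyte genes more were lower than higher. Against cortex 4 were higher in the astrocyte libraries, a share close to the 14.6% of all genes. Another 14 were lower (19.8% of all genes were) and 12 did not pass. The median log2 fold change was -1.18, against -0.08 over all genes. The 4 higher genes were Mlc1, Gpr37l1, Id4 and Atp1b2. Gpr37l1, a receptor of astrocytes, was at 326 ± 154 CPM in astrocyte libraries (SD, n = 3) and 21.3 ± 17.9 CPM in cortex (SD, n = 6), a log2 fold change of 3.93 (adjusted p = 0.0171, edgeR), and Id4, an inhibitor of helix-loop-helix factors, had one of 3.16. Atp1b2, a sodium pump subunit of glia, had the highest level of the list in the astrocyte libraries, at 636 ± 365 CPM against 258 ± 71.3 CPM in cortex (log2 fold change 1.30, adjusted p = 0.0274, edgeR). Genes of glutamate uptake and metabolism were among those that were lower. Slc1a2, the main glutamate transporter of astrocytes, was at 324 ± 266 CPM in astrocyte libraries (SD, n = 3) and 9206 ± 4783 CPM in cortex (SD, n = 6), a log2 fold change of -4.83 (adjusted p = 4.91e-05, edgeR). Glul, the glutamine synthetase, had a log2 fold change of -2.89. Slc7a10, a transporter of small amino acids, had no counts in the astrocyte libraries and was at least 29.7-fold lower. Cldn10, a claudin, had 1 count there and 435 in cortex, a ratio of 383 for cortex over astrocyte libraries (95% exact Clopper-Pearson interval 68.4 to 15161, counting error only). Slc1a3, Apoe, Clu and Hepacam did not pass, with log2 fold changes of -1.55, 0.24, 0.27 and -0.15.

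Genes of reactive astrocytes were mostly higher. Of 21 such genes 19 were tested, of which 13 were higher (14.6% of all genes were) and 1, Nes, was lower (19.8% of all genes were). The median log2 fold change was 3.99, against -0.08 over all genes. Cell type, sorting and genotype changed together between astrocyte libraries and cortex and cannot be told apart. Vim, an intermediate filament protein, was at 650.3 ± 195 CPM in astrocyte libraries (SD, n = 3) and 26.7 ± 8.87 CPM in cortex (SD, n = 6), a log2 fold change of 4.61 (adjusted p = 3.52e-07, edgeR). Tm4sf1 (log2 fold change 5.62), Emp1 (7.70) and Cd109 (8.44), which encode surface proteins, were also higher. Nes, the filament protein nestin, was at 0.107 ± 0.0174 CPM in astrocyte libraries (SD, n = 3) and 18.1 ± 9.58 CPM in cortex (SD, n = 6), a log2 fold change of -7.33 (adjusted p = 8.15e-05, edgeR). Other cells express many of these genes: 9 of the same 19 were higher in aSMCs of SMACreER:Ai47 mice than in cortex (24.1% of all genes were) and 6 in those of SMACreER:Ai14 mice (3.97% of all genes were).

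**Figure D4:**
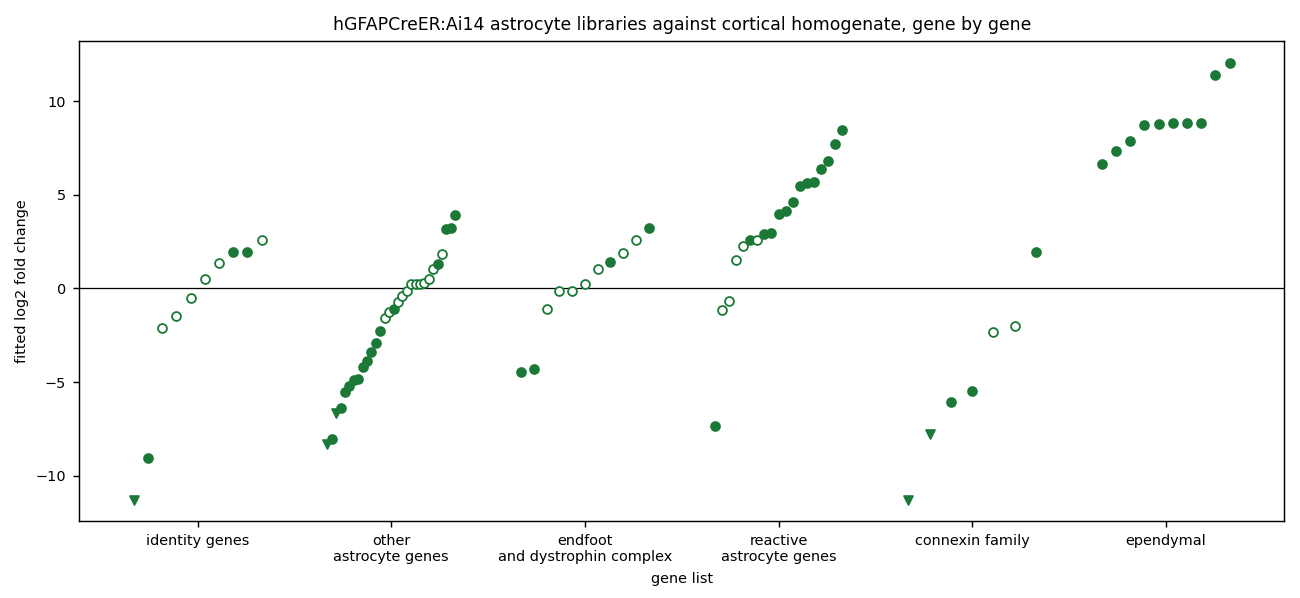
Fitted log2 fold change of astrocyte libraries against cortex for each tested gene of 6 lists, ordered within a list. Filled symbols passed an adjusted p under 0.05, open ones did not, and triangles are genes with no counts in the astrocyte libraries, whose fitted value depends on the prior count. The identity genes spread to both sides of 0, whereas all 10 ependymal markers lie above 0.

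In the aSMCs of SMACreER:Ai47 mice Gja1 and Sox9 were higher than in cortex and most of the other genes were lower. Against cortex 9 of the 10 passed (50.6% of all genes did): 2 were higher (24.1% of all genes) and 7 lower (26.5% of all genes), and Aldh1l1, at -2.12 on the log2 scale, was not called (edgeR, adjusted p = 0.146). With the 6 columns counted as 1 library Gjb6 (-6.33, adjusted p = 0.109, edgeR) and Fgfr3 (-4.90, adjusted p = 0.283, edgeR) lost their calls. Aldh1l1 was at 1.89 to 8.33 CPM in these 6 libraries, against 0.593 to 35.9 CPM in cortex, and its log2 fold change was 1.31 without cortex replicates 1 to 3. The median log2 fold change of the 10 was -5.67, against -0.16 over all genes, and values did not overlap with cortex for 8 of them (35.2% of all genes). Gja1 was at 903 CPM in the lowest of these libraries, 1019 in the median and 1403 in the highest, against 30.3, 36.9 and 128 CPM in cortex. Sox9 was at 272 CPM in the lowest, 327 in the median and 482 in the highest, against 10.7, 33.2 and 51.8 CPM in cortex. Both genes lay above cortex in all 6 libraries, with log2 fold changes of 4.23 ± 0.503 (edgeR, adjusted p = 8.18e-07) for Gja1 and 3.39 ± 0.437 (edgeR, adjusted p = 2.36e-06) for Sox9. Their levels depend on the scaling. With mitochondrial genes left out, the mean in these aSMCs moved from 1093 to 1877 CPM for Gja1 and from 342 to 585 CPM for Sox9. Aldoc, the highest of the 10 per kilobase in cortex, was at 0 to 0.243 CPM in these aSMCs (log2 fold change -12.45, adjusted p = 2.27e-09, edgeR), and Gfap at 0 to 0.122 CPM (log2 fold change -9.17, adjusted p = 1.59e-08, edgeR). Aqp4 had a log2 fold change of -7.08, which was -13.43 without replicate 4 of these aSMCs, and that of Fgfr3 (-5.05) lost its call without cortex replicates 1 to 3 (-2.33, adjusted p = 0.141, edgeR). Fibroblast markers summed to 1544 to 2369 CPM in the same libraries, against 15.7 to 42.2 CPM in cortex, but Col1a1 made up most of the sum, at 1739 ± 347 CPM (SD, n = 6). Of 5 tested, Col1a1 and Col1a2 were higher, Pdgfra, at 0 counts in all 6 libraries, was lower, and Dcn and Col3a1 did not pass, while Lum and Slc6a13 had 1 count each over all 6 libraries. The part of those markers in the level of Gja1 and Sox9 was not tested.

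The aSMCs of SMACreER:Ai14 mice did not share the high Gja1 and Sox9. Gja1 was at 9.47 and 3.18 CPM in replicates 7 and 8, and Sox9 at 15.9 and 5.09 CPM. Both libraries were below every cortex library for Gja1 and below the median of cortex for Sox9. Against cortex 6 of the 10 genes passed (5.97% of all genes did), and all 6 were lower (2.0% of all genes): Gfap, S100b, Gja1, Gjb6, Aldoc and Acsbg1. Values of 8 of the 10 lay below all cortex libraries (11.8% of all genes did, and 36.7% lay above or below). By edgeR 0 were higher (3.97% of all genes were), and the count was also 0 by DESeq2 and for unadjusted p-values under 0.05. This count rests on 2 libraries, since 1 gene passed without replicate 7 and 0 without replicate 8, and 0 passed without cortex replicates 1 to 3. Aqp4 differed between the 2 libraries, with 819 counts (24.9 CPM) in replicate 7 and 104 counts (3.15 CPM) in replicate 8, and its log2 fold change against cortex of -2.57 did not pass (adjusted p = 0.453, edgeR).

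Between the aSMC groups themselves 6 of the 10 genes differed (25.6% of all genes did), 2 of them higher in those of SMACreER:Ai47 mice (9.55% of all genes) and 4 lower (16% of all genes), and 6 did not overlap (52.2%). Gja1 was higher in those of SMACreER:Ai47 mice with a log2 fold change of 7.43 ± 0.981 (edgeR, adjusted p = 1.9e-05), and Sox9 with one of 5.02 ± 0.779 (edgeR, adjusted p = 0.000109). Gfap, Aqp4, Aldoc and Acsbg1 were lower, with log2 fold changes of -4.55, -4.51, -7.07 and -2.85. The call for Gfap rests on 8 counts over 6 libraries and 99 over 2, and takes the 6 columns as independent. Its log2 fold change was -4.65 with those columns counted as 1 library. That fit leaves 1 library in the group, so whether the call for Gfap holds is not settled. The call for Aqp4 was lost without replicate 7 of SMACreER:Ai14 mice (-2.03, adjusted p = 0.547, edgeR) and without any 1 of replicates 1, 2, 3, 5 and 6 of SMACreER:Ai47 mice (adjusted p of 0.0534 to 0.0578, edgeR), and its log2 fold change was -10.57 without replicate 4 of SMACreER:Ai47 mice. That for Acsbg1 rests on 10 counts over 6 libraries and 39 over 2, and it was lost without either library of SMACreER:Ai14 mice (adjusted p of 0.209 and 0.226, edgeR), without any 1 of replicates 2 to 6 of SMACreER:Ai47 mice (0.116 to 0.125) and without any 1 cortex library (0.0582 to 0.0909). Reporter, sort and sequencing depth all changed with these groups and cannot be told apart.

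Set directly against the aSMCs, the astrocyte libraries were higher for Gfap, Aldoc, S100b, Aqp4 and Fgfr3 and lower for Gja1, Gjb6 and Sox9 than the aSMCs of SMACreER:Ai47 mice, 8 of 10 genes in all (49.9% of all genes passed, 23.8% higher and 26.1% lower). Values of 7 did not overlap (38.2% of all genes), Gjb6 among them. Those of Fgfr3 overlapped, with 0 counts in astrocyte replicate 2. Its call was lost with a replicate block (3.09, adjusted p = 0.233, edgeR). Gjb6 was near the floor in both groups, with 0 counts in the astrocyte libraries and 5 or 6 raw counts (0.182 to 0.285 CPM) in these aSMCs. A count of 0 allows 0.0782 CPM over the astrocyte group and 0.152 to 0.381 CPM in a single astrocyte library. The size of the difference in Gjb6 is thus not settled. Gja1 was at 225 ± 147 CPM in astrocyte libraries (SD, n = 3) and 1093 ± 201 CPM in these aSMCs (SD, n = 6), a log2 fold change of -2.28 ± 0.606 (edgeR, adjusted p = 0.00421). Calls in this comparison take the 6 columns of these aSMCs as independent, so their p-values may be too small. With those columns counted as 1 library the log2 fold changes were -2.45 for Gja1, -4.82 for Gjb6 and -1.60 for Sox9. They were 2.65 for S100b and 4.22 for Fgfr3. That fit leaves 1 library in the group, so whether these calls hold is not settled. For Sox9 the log2 fold change was -1.45 ± 0.523 (edgeR, adjusted p = 0.0264), and with the size factors of DESeq2 it was -1.26 (adjusted p = 0.0557, edgeR). With scaling by library totals alone that of Sox9 turned to 0.75 (adjusted p = 0.306, edgeR) and that of Gja1 shrank to -0.08 (adjusted p = 0.94, edgeR). Library totals alone moved the median of all genes in this comparison to 1.89, against -0.22 with TMM. Against the aSMCs of SMACreER:Ai14 mice 5 of the 10 passed (17.1% of all genes did), with Gfap, Gja1, Aldoc and Sox9 higher (3.56% of all genes) and Gjb6 lower (13.6%), and values of 8 did not overlap (48.0%). Gfap had the largest of these changes that were higher, a log2 fold change of 5.96 ± 1.17 (edgeR, adjusted p = 0.00158), from 97.0, 25.2 and 159.8 CPM in astrocyte libraries and 1.19 and 1.82 CPM in these aSMCs. No gene of the 10 passed with these 2 groups fitted alone, and 9 passed by DESeq2. Gjb6 had 4 and 28 counts in replicates 7 and 8 of SMACreER:Ai14 mice and 0 in the astrocyte libraries. Its call was lost without replicate 8 of SMACreER:Ai14 mice (-3.79, adjusted p = 0.208, edgeR), and that of Aldoc without replicate 7 (3.78, adjusted p = 0.149, edgeR) or 8 (4.29, adjusted p = 0.121, edgeR).

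Outside the 10, the genes whose pattern was most like the mean of the 10 were looked for among 13209 genes with a mean of at least 1 CPM, by Pearson's r of log2(CPM + 0.5) over 17 libraries. Among the most alike were Gstm5 (r = 0.97), a glutathione transferase, Selenow (0.95), a selenoprotein, Slc1a3 (0.93), the glutamate transporter GLAST, and Asrgl1 (0.93), an asparaginase. These 4 had their highest mean in cortex and their lowest in aSMCs of SMACreER:Ai47 mice. Slc1a3, for example, averaged 103 CPM in astrocyte libraries, 6.17 and 8.48 CPM in aSMCs of SMACreER:Ai47 and SMACreER:Ai14 mice, and 303 CPM in cortex. Within the 10 genes, r over the same 17 libraries was lowest between Aldoc and Sox9 (-0.63). The points share groups and libraries, so these values only describe the table.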

How the data were processed

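Whole-number counts per gene symbol were deposited by the authors as 1 table of 17 libraries, and all its columns were matched to samples by name. The submitters' processing notes list Trim Galore 0.6.7, FastQC 0.11.9, MultiQC 1.13, Salmon 1.4.0 and the build GRCm38, whereas the study's methods name TopHat, htseq-count and DESeq2, so the counter behind these counts is not settled and the sources used here do not give its strand setting. Genes were filtered with filterByExpr (minimum count 10), scaled by TMM and fitted over all 4 groups with the quasi-likelihood test of edgeR 4.0.16 in R 4.3.3. P-values were adjusted by Benjamini-Hochberg over 14927 genes, with a threshold of 0.05. The script was tested on simulated counts. DESeq2 1.42.0, other scalings and filters, 2 groups fitted alone, a replicate block and leaving out each library were alternatives. Leaving out cortex replicates 1 to 3 or 4 to 6 was chosen after seeing the data. CPM used TMM-scaled totals, and per-kb values the exon union of GENCODE M21. A count of 0 was taken to allow 3 counts. Totals of 4537137 to 53643624 counts limit precision most in astrocyte and cortex libraries, and counting intervals cover counting error only. The genes named are the 10 chosen by name and, from each other list, the 2 highest in level in astrocyte libraries and the 2 with the largest change against cortex, every tested connexin and the 5 genes most like the mean of the 10. Some genes that this rule names are not reported here, and other genes were named after their values were seen. The 10 genes and all lists were chosen with earlier results of these data known.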

Additional observations from a re-analysis of the deposited data

Results flagged for a closer look

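Of the 20 gene and group combinations tested for a single library far from the rest, 4 stood out, all in the aSMCs of SMACreER:Ai47 mice. Chance alone gives about 1 in 20 where values are normally distributed and independent. Some of these values lay at or near 0 counts and the 6 columns held close counts, so the 4 cannot be set against that rate. Aldh1l1 was at 8.33 CPM in replicate 1, with the next highest library at 2.96 CPM. Acsbg1 was at 0.262 CPM in the same library, from 5 counts, with the next at 0.0570 CPM. S100b was at 10.8 CPM in replicate 5, with the next at 2.84 CPM. Aqp4 was at 3.57 CPM in replicate 4 and at 0 counts in the other 5.

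The change against cortex differed between aSMCs of SMACreER:Ai47 and SMACreER:Ai14 mice for 6 genes by the edgeR contrast of both groups, which the shared cortex samples leave as a direct comparison. The difference in log2 fold change was 7.43 for Gja1 and 5.02 for Sox9. It was -7.07 for Aldoc, -4.55 for Gfap, -4.51 for Aqp4 and -2.85 for Acsbg1. Fibroblast markers summed to 1544 to 2369 CPM in the aSMCs of SMACreER:Ai47 mice and 109.9 to 152 CPM in those of SMACreER:Ai14 mice, with most of the first sum from Col1a1 alone (1739 ± 347 CPM, SD, n = 6, against 2.003 ± 1.24 CPM, SD, n = 2), and their part in these differences was not tested.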

How the results depend on the processing

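Of 565 values under settings other than leaving out a library, 486 kept their direction and side of the threshold, 41 lost a call, 25 gained one and 13 turned in direction; of 1020 values with 1 library left out, 938, 38, 8 and 36 did so. The cause of each change below was not tested. Between astrocyte libraries and cortex, 4 genes passed, 2 with a replicate block (Gja1 1.48, adjusted p = 0.0619; Sox9 1.64, adjusted p = 0.0511, edgeR) and 3 to 5 with 1 library left out. Against cortex, aSMCs of SMACreER:Ai14 mice had 6 calls, 3 with library totals alone, 10 with 2 groups alone, 0 without cortex replicates 1 to 3 and 0 to 7 with 1 library left out. Astrocyte libraries against aSMCs of SMACreER:Ai47 mice had 8 calls and 3 with those 6 columns counted as 1 library. Against aSMCs of SMACreER:Ai14 mice they had 5 calls, 9 by DESeq2, 0 with 2 groups alone and 3 to 6 with 1 library left out. The aSMC groups had 6 calls, 3 with the SMACreER:Ai47 columns as 1 library and 4 to 6 with 1 left out. Directions turned as follows. For astrocyte libraries against cortex, Aldh1l1 was -2.15 with the block, -0.44 without cortex replicates 4 to 6 and -5.82 to 1.17 with 1 library left out, and Fgfr3 was 0.32 with library totals, 2.23 without cortex replicates 1 to 3 and -1.35 to 0.0083 with 1 library left out. For aSMCs of SMACreER:Ai47 mice against cortex, Aldh1l1 was 1.31 without cortex replicates 1 to 3. For astrocyte libraries against aSMCs of SMACreER:Ai47 mice, Aldh1l1 was -1.38 with the block and -4.02 to 2.97 with 1 library left out, Sox9 was 0.75 with library totals, and Acsbg1 was -0.094 without mitochondrial genes, -0.049 with no filter, -0.12 with the columns as 1 library, -0.56 with the block and -1.40 to 0.65 with 1 library left out. Against aSMCs of SMACreER:Ai14 mice, Aldh1l1 was -0.68 to 6.31 with 1 library left out. Between the aSMC groups, S100b was 0.16 without mitochondrial genes, 0.017 with no filter and -0.85 to 0.37 with 1 left out, Gjb6 was -1.52 to 1.25 and Fgfr3 -0.71 to 0.096. Library totals alone moved the median of all genes from -0.08 to 0.80 between astrocyte libraries and cortex, where Gfap then passed (2.35, adjusted p = 0.0180, edgeR). Replicate numbers did not pair the samples: deviations of same-numbered libraries correlated at -0.0447 to 0.0351. For comparisons with the aSMCs of SMACreER:Ai14 mice no block could be fitted because replicates 7 and 8 of SMACreER:Ai14 mice share no number with other groups. Low totals and genes at 0 in single astrocyte libraries limit what absence there can show.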

Other observations

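Of 25 relatives of the 10 genes, 21 were tested between astrocyte libraries and cortex, of which 4 were higher and 2 lower (14.6% and 19.8% of all genes were), with a median log2 fold change of -0.28 against -0.08 over all genes. Sox2, a transcription factor of neural precursors and glia, had a log2 fold change of 4.25 (adjusted p = 0.00826, edgeR), S100a6, a calcium-binding protein, 3.67, and Acsl3, an acyl-CoA synthetase, 1.82. Vim was also higher, and Nes and Des, both intermediate filament genes, were lower. Of 15 endothelial markers 14 were lower (19.8% of all genes were) and 1 was higher (14.6% of all genes were). Slc2a1, the glucose transporter GLUT1, was the higher 1, at 947 ± 398 CPM in astrocyte libraries (SD, n = 3) and 206 ± 78.2 CPM in cortex (SD, n = 6), a log2 fold change of 2.20 (adjusted p = 0.00148, edgeR).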
